A study of Mus musculus with 6 samples.

Results

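The collagen chains of dystrophic mouse myoblasts were examined by RNA-seq. Every gene of the deposited table whose symbol reads Col, a type number, the letter a and a chain number was taken, which gave 44 chains among 47069 listed genes. Of these, 9 encode fibrillar chains (types I, II, III, V and XI), 8 encode chains found in basement membranes (types IV, XV and XVIII), and 27 encode other chains. The cells were satellite cells, the stem cells of skeletal muscle, taken from muscle of mdx mice, which lack dystrophin and model Duchenne muscular dystrophy. They were sorted for Itga7 and Itgb1 and against Sca-1, CD45, CD31 and CD11b. Growth as myoblasts in rich medium with FGF2, on dishes coated with collagen, is described in the study's methods. These methods name no medium for the sequenced cells in particular. Both groups were mdx cells: 3 libraries came from cells given vehicle, which was DMSO in an aqueous buffer, and 3 from cells given 10 μM PSB-KD107, a synthetic agonist of the receptor Gpr18. The study's methods describe cells of 3 mice and an overnight treatment, the sample records state 2 days, and the methods give an age for the mice of the animal work but none separately for the donors of these cells. Libraries are named by the numbers in the table (1, 2 and 4 in each group), of which 1 and 2 also occur in the sample records.

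Collagens are secreted proteins whose chains wind around each other into a triple helix. Fibrillar collagens form the ropes that give tendon, skin and scar their strength, type IV collagen forms the mesh of the basement membrane that wraps every muscle fiber, and type VI collagen forms fine filaments between the mesh and the fibrils. In muscle most fibrillar collagen comes from fibroblasts and related stromal cells, whereas satellite cells make chains of their own niche, and excess collagen is the substance of the fibrosis seen in dystrophic muscle. The comparison asked whether the RNA of these chains differed between myoblasts given the Gpr18 agonist and myoblasts given vehicle.

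Depth ranged from 30917613 to 48756794 counts per library, at which 3 counts, the limit that a count of 0 allows, correspond to 0.0596 to 0.0962 CPM, a unit of counts scaled to the same normalized total in every library. This limit covers counting error only. The labelled cell type was checked on marker genes. The summed level of 9 myoblast markers was 7407 to 8065 CPM in all 6 libraries, with none of them under 1 CPM. This sum separated the groups, at 7785 to 8065 CPM with vehicle and 7407 to 7604 CPM with PSB-KD107. Among its members only Pax7 did so. Des, the most abundant of them, and Myf5 had positive log2 fold changes with PSB-KD107 (0.15 and 0.73) and overlapped. The remaining markers had negative ones and overlapped as well. The 9 markers of fibroblasts and fibro-adipogenic progenitors summed to 1.95 to 7.37 CPM with vehicle and to 2.18 to 11.6 CPM with PSB-KD107, with 5 of them under 1 CPM and Tcf21 at 0 in every library. Their highest sums were those of PSB-KD107 4 (11.6 CPM) and vehicle 1 (7.37 CPM), followed by PSB-KD107 1 (5.68 CPM). The part of such cells in the collagen levels was not tested. Markers of differentiating myocytes and fibers summed higher than the myoblast markers, to 28910 to 32530 CPM with vehicle and 23140 to 26730 CPM with PSB-KD107. Markers of endothelial cells reached at most 9.12 CPM, those of white blood cells at most 6.56 CPM and those of fat cells at most 0.0642 CPM. As RNA came from bulk cultures, fewer cells of a type and less RNA per cell cannot be told apart.

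Levels were compared between collagen chains only as FPKM, the CPM divided by the exon length in kilobases. Marker genes and their sums are given in CPM, with no correction for length. Exons of all annotated transcripts of a gene were merged, so that this length can exceed that of any single transcript. By FPKM the repertoire was led by chains of the basement membrane and by fibrillar chains of types III and V. The highest mean over the 6 libraries was that of Col18a1 (34.2 FPKM), which encodes the type XVIII chain from which endostatin is cut. It was followed by Col4a1 (28.5 FPKM), one of the chains of the common type IV network, and then by Col5a1 (20.9 FPKM), Col3a1 (20.0 FPKM) and Col5a2 (18.3 FPKM), which encode chains of types V and III. Col4a2 (17.5 FPKM), Col6a1 (15.7 FPKM) and Col25a1 (10.3 FPKM), a membrane-bound collagen of muscle needed by ingrowing motor axons, complete the 8 chains at or above 10 FPKM, and 15 chains reached 1 FPKM. The ranges over libraries of any chain and its next neighbour in this order overlapped, so that single steps in the order are not resolved.

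Type I collagen, the main collagen of scar and tendon, was barely detected. The mean level of Col1a2 was 0.239 FPKM and that of Col1a1 was 0.101 FPKM. Col1a1 (chr11:94936224-94953042, GRCm38) had 109, 4 and 3 counts in vehicle libraries 1, 2 and 4 and 6, 3 and 28 counts in PSB-KD107 libraries 1, 2 and 4. Vehicle 1 and PSB-KD107 4 thus held nearly all of its counts, and the gene did not pass the filter on low counts. Likewise, 16 of the 44 chains were too low to be tested, and 9 of these had 10 counts or fewer in every library.

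**Figure D1:**
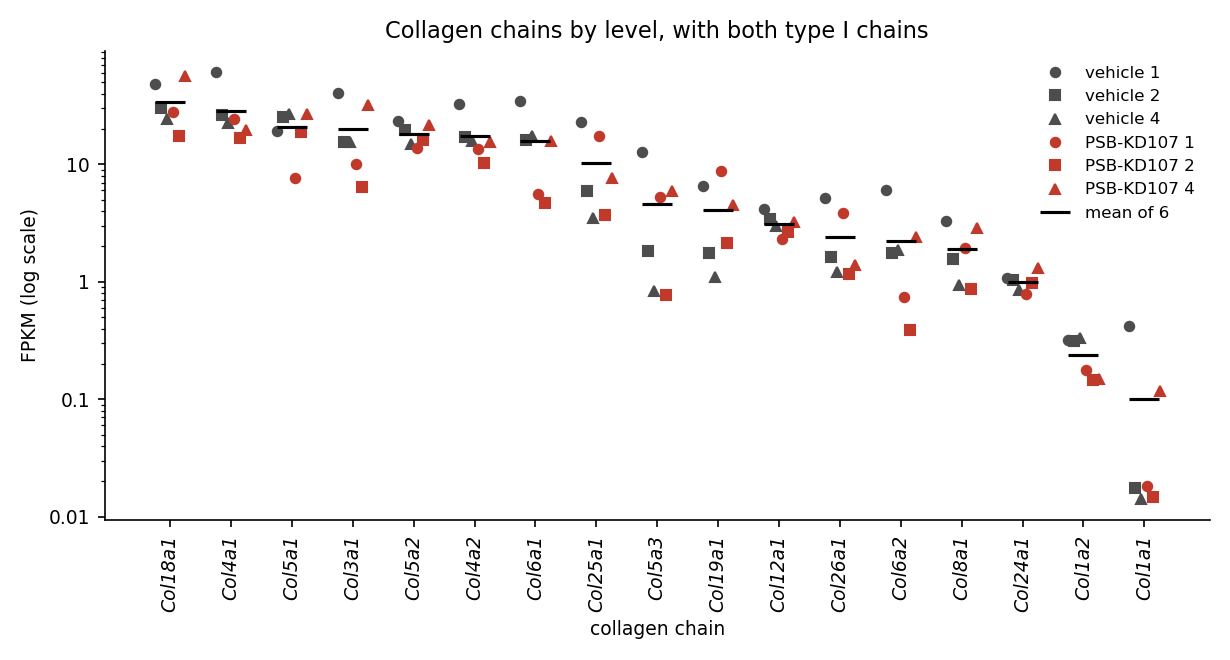
Level of the 15 collagen chains with a mean of at least 1 FPKM and of both type I chains, in FPKM on a log axis. Each point is 1 of 6 libraries (grey for vehicle, red for PSB-KD107) and the bar is their mean, which runs from 34.2 FPKM for Col18a1 to 0.101 FPKM for Col1a1.

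Summed over all 44 chains, collagen RNA was 329.2, 173.2 and 154.2 FPKM in vehicle libraries 1, 2 and 4 and 148.4, 106.6 and 225.7 FPKM in PSB-KD107 libraries 1, 2 and 4. The groups overlapped, since vehicle 1 and PSB-KD107 4 both stood above the other 4 libraries. The means were 218.9 ± 96.0 FPKM with vehicle and 160.2 ± 60.4 FPKM with PSB-KD107 (SD, n = 3 each). Vehicle 1 had the highest sum of fibrillar chains (97.7 FPKM), of basement membrane chains (143.1 FPKM) and of other chains (88.4 FPKM). The next highest library was PSB-KD107 4 for fibrillar (87.6 FPKM) and basement membrane chains (96.3 FPKM), and PSB-KD107 1 for other chains (44.1 FPKM). In every library the 8 leading chains made up 81.5% to 91.4% of the summed collagen FPKM.

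**Figure D2:**
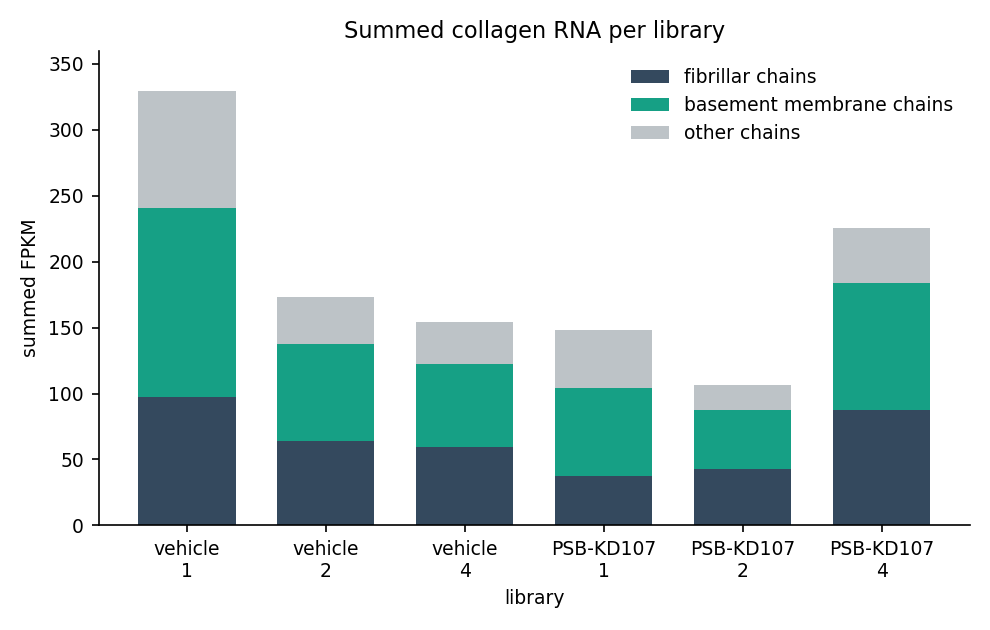
Summed FPKM of fibrillar (9 chains), basement membrane (8) and other (27) collagen chains in each library, as stacked bars. The tallest bars are those of vehicle 1 (329.2 FPKM) and PSB-KD107 4 (225.7 FPKM), so that the groups overlap.

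Of the 28 chains tested, 23 had a lower and 5 a higher level with PSB-KD107. Their median log2 fold change (PSB-KD107 against vehicle) was -0.36, beside -0.00 over all 14165 genes tested, of which 50.1% were lower. All 8 fibrillar chains tested were lower (median -0.46), as were 2 of 4 basement membrane chains (median -0.37) and 13 of 16 other chains (median -0.33). At an adjusted p-value under 0.05, edgeR's quasi-likelihood test called 0 of the 28 chains, beside 0.0% of all genes tested, and the lowest adjusted p-value of a chain was 0.243. At an unadjusted p-value under 0.05 it gave 2 lower chains (Col1a2 and Col6a1) of 28, where 2.93% of all genes were lower, and 0 higher chains, where 6.47% of all genes were higher. DESeq2, used as an alternative, called 1 chain lower (Col1a2) and 0 higher at an adjusted p-value under 0.05, beside 0.939% of all genes lower and 2.46% higher. Groups did not overlap for 5 chains, all lower with PSB-KD107 (Col1a2, Col4a2, Col6a1, Col11a2 and Col27a1), beside 6.59% of all genes lower without overlap and 9.2% higher. With 3 libraries per group, the exact permutation test of such a chain gives 0.1, the smallest p-value that the design allows.

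**Figure D3:**
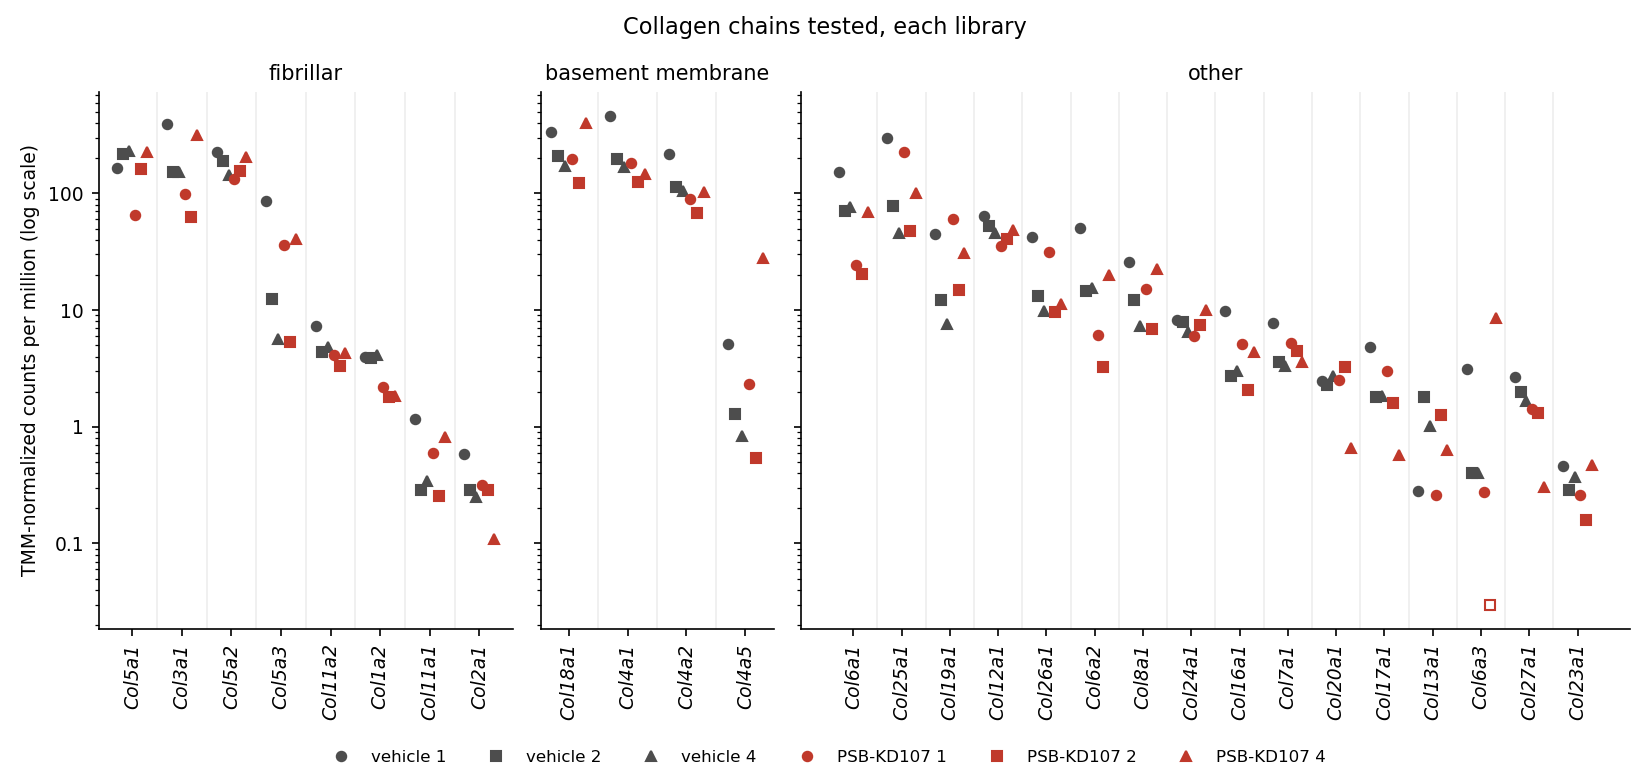
TMM-normalized CPM (log axis) of the 28 collagen chains tested, by class and in order of FPKM. Each point is 1 library, and the open square marks the count of 0 for Col6a3 in PSB-KD107 2, drawn near the foot of the axis. Vehicle 1 is the highest of the 6 libraries for 18 of the 28 chains.

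These medians moved with single libraries. Vehicle 1 was the highest of all 6 libraries in 18 of 28 chains (64.3%, beside 17.2% of all genes), and PSB-KD107 4 in 5 of 28 (17.9%, beside 25.7%). Without vehicle 1, 15 of the 28 chains were lower, and the median log2 fold change was -0.09 for fibrillar, 0.03 for basement membrane and 0.02 for other chains. In that setting 1 of the 28 chains (Col1a2) was lower at an unadjusted p-value under 0.05, beside 4.46% of all genes, and 1 (Col19a1) was higher, beside 7.33%. Groups then did not overlap for 5 lower chains, the same as with all libraries, and for 2 higher ones (Col7a1 and Col19a1), beside 18.9% and 19.1% of all genes. Without PSB-KD107 4, in contrast, 25 of the 28 chains were lower, with medians of -0.66 for fibrillar, -0.79 for basement membrane and -0.47 for other chains. An unadjusted p-value under 0.05 was then reached by 5 of the 28 chains in the lower direction, beside 3.65% of all genes, and by 0 in the higher direction, beside 6.92%. These were Col1a2, Col3a1, Col6a1, Col6a2 and Col12a1, and 11 chains had both remaining PSB-KD107 libraries below every vehicle library, beside 11.4% of all genes.

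**Figure D4:**
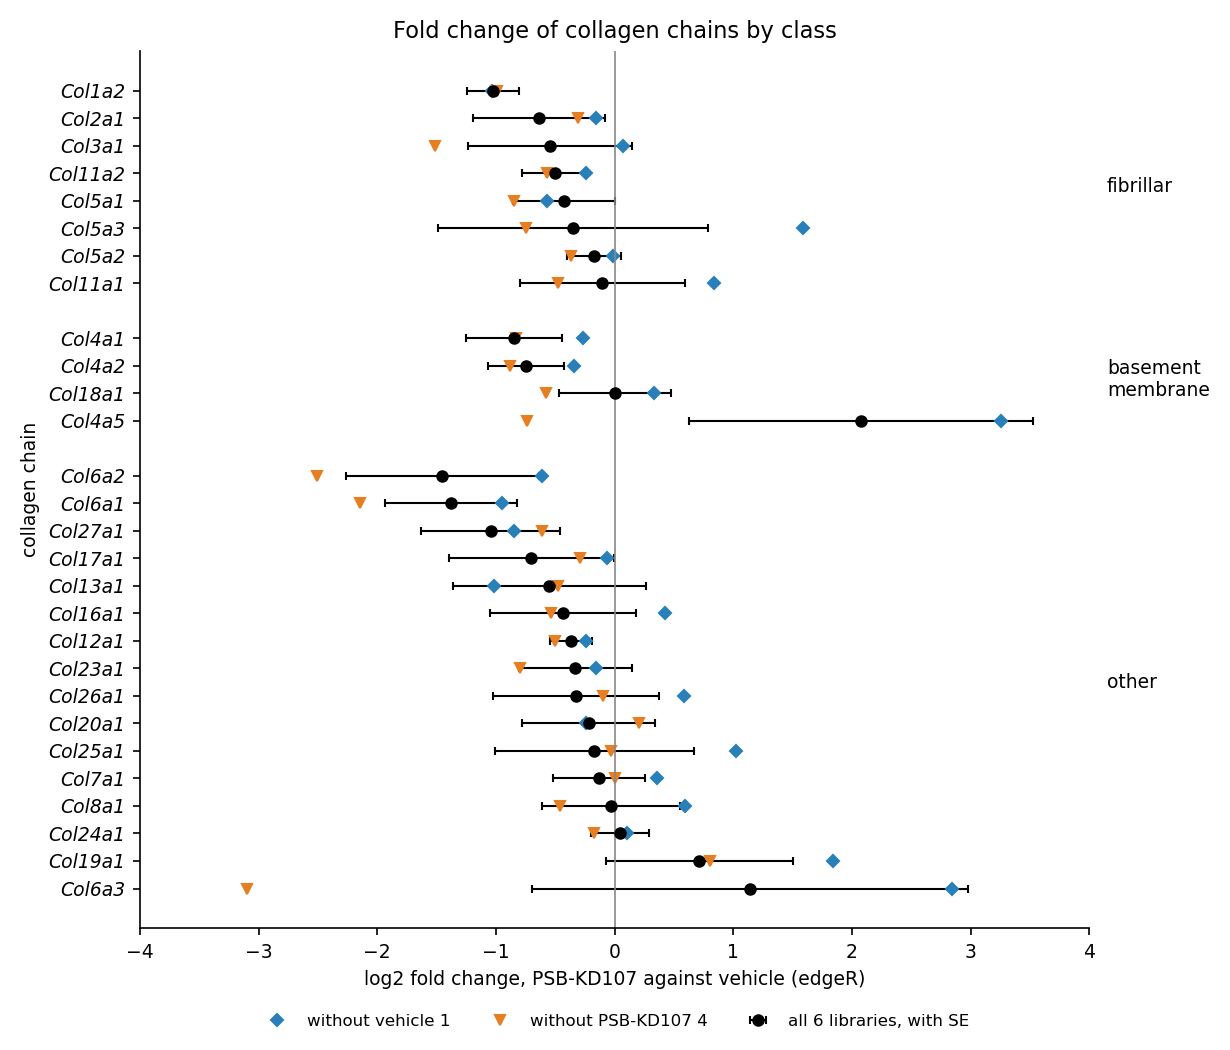
Log2 fold change of each tested chain by class, with all 6 libraries (black, bars are SE), without vehicle 1 (blue) and without PSB-KD107 4 (orange). Col1a2 stays between -1.14 and -0.98 whichever library is left out, whereas Col4a5 and Col6a3 change sign without PSB-KD107 4.

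Among fibrillar chains, Col1a2 (chr6:4504814-4541544) differed most clearly. Its level was 3.98, 3.87 and 4.09 CPM in vehicle libraries 1, 2 and 4 and 2.21, 1.80 and 1.84 CPM in PSB-KD107 libraries 1, 2 and 4. Each vehicle library lay above each treated library, with little spread in either group. The log2 fold change was -1.03 with an SE of 0.22 (edgeR's quasi-likelihood test, adjusted p = 0.243 and unadjusted p = 0.0031), and DESeq2 gave an adjusted p of 8.77e-04. Left-out libraries moved it only from -1.14 to -0.98, with adjusted p-values of 0.239 to 0.979 by edgeR. By DESeq2 the adjusted p was 0.0554 without vehicle 4, where the call was lost, and 0.0045 to 0.0464 without each of the other libraries. This was a difference at a low level, of 132 to 156 counts per library with vehicle and 56 to 111 counts with PSB-KD107. Its mean was 0.320 FPKM with vehicle and 0.157 FPKM with PSB-KD107. The study's methods set aside genes under 1 FPKM in both conditions, a filter that leaves out Col1a2. A stretch before its RefSeq start site is shown because Col1a2 was the only chain called by any test on all 6 libraries. The annotated gene begins further upstream through another transcript, so that the stretch lies inside the gene but in no annotated exon, at chr6:4505370-4505492 (GRCm38, plus strand, RefSeq promoter table), and capitals mark GGGCGG, the core of the GC box that Sp1 binds.
Col1a2: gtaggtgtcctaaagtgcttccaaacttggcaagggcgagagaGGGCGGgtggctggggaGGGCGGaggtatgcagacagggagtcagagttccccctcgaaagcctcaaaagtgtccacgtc
The motif occurs 2 times in these 123 bases, on the strand shown. On either strand, 35.7% of the 32851 windows in the table (250 bases before to 50 after a start) hold it. These windows are longer than the stretch shown, so that the share is not directly comparable.

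Col3a1 (chr1:45311538-45349706), which encodes the only chain of type III collagen and shares 141 of its 9816 exon bases with another gene model on the same strand, had 395, 153 and 151 CPM in the vehicle libraries and 99.7, 63.0 and 316 CPM with PSB-KD107. PSB-KD107 1 and 2 lay below all vehicle libraries and PSB-KD107 4 lay above vehicle 2 and 4, so that the groups overlapped. Its log2 fold change of -0.54 (SE 0.69) became -1.52 without PSB-KD107 4 (unadjusted p = 0.0383) and 0.07 without vehicle 1.

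The chains of type V collagen, which joins type I and III fibrils and also signals to satellite cells in their niche, did not move as a unit. Col5a1 had 164, 217 and 229 CPM with vehicle and 65.2, 161 and 228 CPM with PSB-KD107, and here vehicle 1 was the lowest of its group. Col5a2 was the steadiest abundant chain, at 226, 188 and 144 CPM with vehicle and 132, 156 and 207 CPM with PSB-KD107. Col5a3 was the most variable of them, with 5.68 to 86.3 CPM in vehicle libraries and 5.29 to 40.6 CPM in PSB-KD107 libraries. Their log2 fold changes were -0.43 (SE 0.43), -0.17 (SE 0.23) and -0.35 (SE 1.14), all within about 1 SE of 0. The remaining fibrillar chains are those of cartilage. Col11a2 had 7.37, 4.41 and 4.81 CPM with vehicle and 4.13, 3.30 and 4.29 CPM with PSB-KD107, which did not overlap (log2 fold change -0.50, SE 0.28, unadjusted p = 0.119 by edgeR). Col2a1 (-0.64, SE 0.56) and Col11a1 (-0.10, SE 0.70) stayed under 1.2 CPM in every library.

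In the basement membrane class, Col4a1 and Col4a2 encode the chains that build the common type IV network together. The genes lie head to head on chromosome 8, Col4a1 at chr8:11198423-11312826 on the minus strand and Col4a2 at chr8:11312805-11449287 on the plus strand, so that their annotated first exons share 22 bases. These bases, between both start sites, are shown because the ratio of the chains in FPKM stayed between 1.28 and 1.86 in all 6 libraries. They are given as on the plus strand of GRCm38 (chr8:11312805-11312826, RefSeq promoter table), with GGGCGG in capitals.
Col4a1 and Col4a2: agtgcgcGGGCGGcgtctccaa
The motif occurs 1 time in this stretch. The part of the shared bases in the ratio was not tested.

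Col4a1 had 457, 197 and 167 CPM with vehicle and 182, 126 and 148 CPM with PSB-KD107. Col4a2 had 218, 113 and 105 CPM with vehicle and 89.4, 68.2 and 102 CPM with PSB-KD107. Vehicle 1 was by far the highest library for both, and all vehicle libraries exceeded all treated ones for Col4a2, whereas for Col4a1 PSB-KD107 1 lay above vehicle 4. Log2 fold changes were -0.85 (SE 0.40, adjusted p = 0.598) and -0.75 (SE 0.32, adjusted p = 0.549). Without vehicle 1 they were -0.27 and -0.34. The ratio of Col4a1 to Col4a2 in FPKM stayed between 1.28 and 1.86 in all 6 libraries, with means of 1.61 ± 0.23 with vehicle and 1.58 ± 0.27 with PSB-KD107 (SD, n = 3 each, exact permutation test, two-sided, p = 0.9). As overlapping reads could be split by the counting step, whose strand setting is not given in the sources used here, the shared bases leave the counts uncertain, for 22 of the 7464 exon bases of Col4a1 and, with a further antisense gene model, for 65 of the 6619 of Col4a2. The same holds for 212 exon bases of Col5a1.

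Col18a1 (chr10:77052178-77166548) showed no shift between groups, with a log2 fold change of 0.00 (SE 0.47). It had 338, 210 and 171 CPM with vehicle and 198, 122 and 400 CPM with PSB-KD107. The spread within each group exceeded any difference between them, with PSB-KD107 4 highest. Col4a5, a chain of the specialised type IV networks, had 5.13, 1.29 and 0.837 CPM with vehicle and 2.33, 0.545 and 27.8 CPM with PSB-KD107. Its log2 fold change of 2.08 (SE 1.45) came from PSB-KD107 4 alone and was -0.74 without that library. Its head-to-head neighbour Col4a6 had at most 2 counts in any library. The other head-to-head pair, Col4a3 and Col4a4, had at most 2 and at most 16 counts, and Col15a1, a relative of Col18a1, had at most 7. None of these could be compared.

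**Figure D5:**
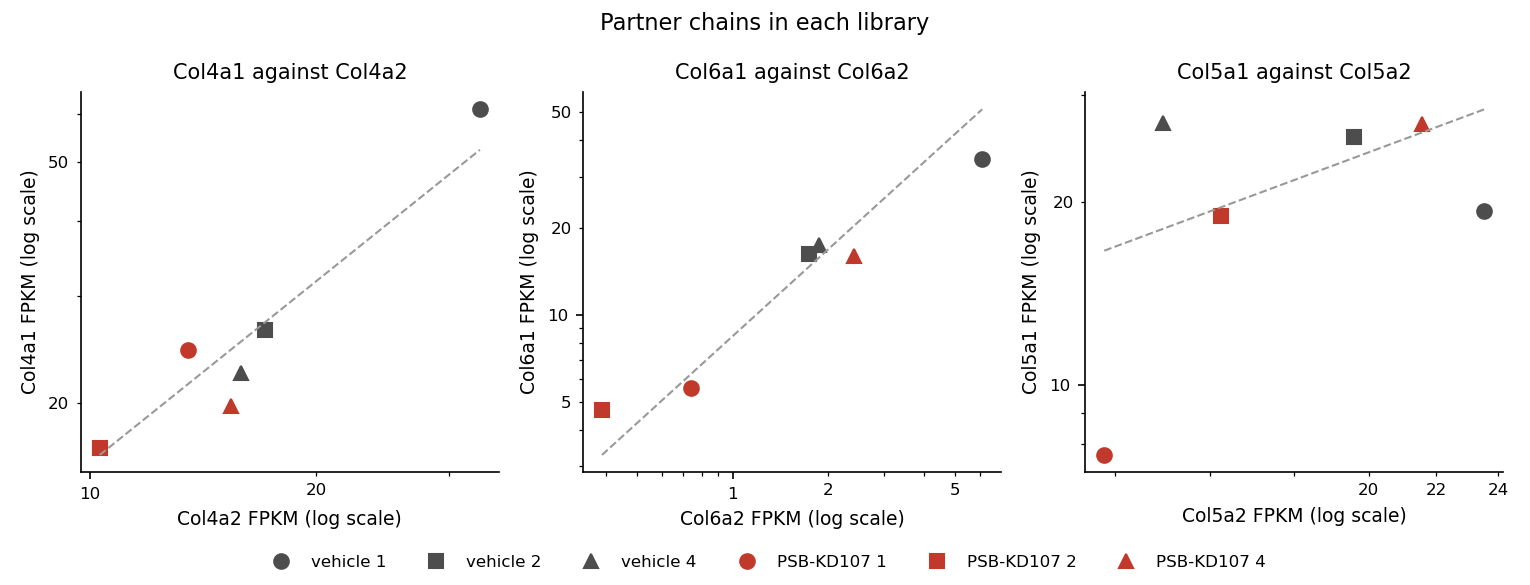
FPKM of partner chains against each other in every library, on log axes, with a dashed line at the median ratio. Col4a1 and Col4a2 span ratios of 1.28 to 1.86, Col6a1 and Col6a2 span 5.68 to 12.1, and Col5a1 and Col5a2 span 0.557 to 1.80.

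Col6a1 and Col6a2 of type VI collagen had the largest negative fold changes of the 28 chains tested when all 6 libraries were used, whereas without vehicle 1 that of Col1a2 was larger than both. The chains Col6a1, Col6a2 and Col6a3 form filaments that tie the basement membrane of muscle fibers to the matrix, and their loss causes Ullrich and Bethlem myopathies. Col6a1 (chr10:76708792-76726168) had 151, 71.1 and 76.4 CPM with vehicle and 24.4, 20.6 and 69.8 CPM with PSB-KD107. The groups did not overlap, although PSB-KD107 4 was close to vehicle 2, and vehicle 1 had the highest level. The log2 fold change was -1.38 (SE 0.56, edgeR's quasi-likelihood test, adjusted p = 0.523 and unadjusted p = 0.0467). It was -2.15 without PSB-KD107 4 and -0.95 without vehicle 1. The unadjusted p was 0.0031 without PSB-KD107 4 and 0.0510 to 0.146 without each of the other libraries.

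Col6a2, its neighbour on chromosome 10 (chr10:76595762-76623630), was also highest in vehicle 1 and lowest in PSB-KD107 2. It had 50.6, 14.5 and 15.5 CPM with vehicle and 6.16, 3.24 and 20.1 CPM with PSB-KD107, so that PSB-KD107 4 lay within the vehicle range and the groups overlapped. The log2 fold change was -1.45 (SE 0.81, adjusted p = 0.640), and it was -2.51 without PSB-KD107 4 and -0.61 without vehicle 1. Leaving out PSB-KD107 4 brought a DESeq2 call for Col6a1 (adjusted p = 6.21e-06) and Col6a2 (adjusted p = 0.0054), neither of which was called in any other DESeq2 setting. In FPKM, Col6a1 exceeded Col6a2 by 5.68 to 12.1 times in every library, and the ratio did not separate the groups (exact permutation test, two-sided, p = 0.9). The size of this ratio also depends on the exon lengths used, 4380 bases for Col6a1 and 8326 for Col6a2. Col6a3 was scarce and erratic, at 3.14, 0.401 and 0.403 CPM with vehicle and 0.278, 0 and 8.47 CPM with PSB-KD107. It had a log2 fold change of 1.14 (SE 1.84), which was -3.09 without PSB-KD107 4. Col6a4, Col6a5 and Col6a6 had at most 5 counts in any library.

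The stretch before the start of Col6a1 is shown beside that of Col1a2 as the second chain with an unadjusted p-value under 0.05. It lies at chr10:76726169-76726294 (GRCm38, minus strand, RefSeq promoter table), outside annotated exons, and is all in lower case because neither the GC box core GGGCGG, nor CCAAT, the CCAAT box, nor TATAAA, the TATA box, falls in it on either strand.
Col6a1: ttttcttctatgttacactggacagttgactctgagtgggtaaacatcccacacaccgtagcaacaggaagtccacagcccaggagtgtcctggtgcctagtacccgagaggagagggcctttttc
Of all windows in the table, 37.4% hold the CCAAT box and 13.6% the TATA box on either strand, beside the share given above for the GC box core. As these windows are longer than the 126 bases shown, the absence of the motifs cannot be set directly against the shares. The table held 35 of the 44 chains (79.5%), which was too few for a count of motifs over the chains.

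The other chains included fibril-associated collagens. Col12a1, which coats fibrils in muscle and tendon, had 63.6, 52.4 and 45.6 CPM with vehicle and 35.4, 40.6 and 48.9 CPM with PSB-KD107. Only PSB-KD107 4 reached into the vehicle range, and the log2 fold change was -0.37 (SE 0.18), or -0.50 without that library (unadjusted p = 0.0313). The lower Col16a1 (mean 0.671 FPKM) had a log2 fold change of -0.43 (SE 0.62) and Col20a1 (0.450 FPKM) one of -0.22 (SE 0.56). Col19a1, a fibril-associated collagen made by embryonic muscle, had 44.7, 12.1 and 7.63 CPM with vehicle and 60.1, 14.9 and 30.8 CPM with PSB-KD107. It was the most abundant of the chains with a positive log2 fold change above 0.1 (0.72, SE 0.78), and that change was 1.84 without vehicle 1 (unadjusted p = 0.0339) but 0.072 without PSB-KD107 1 (unadjusted p = 0.934).

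Col27a1 and Col24a1 are fibril-forming by structure, although their types fall outside the fibrillar class used here. Col27a1 had 2.65, 1.98 and 1.68 CPM with vehicle and 1.43, 1.32 and 0.303 CPM with PSB-KD107, with no overlap and a log2 fold change of -1.04 (SE 0.58, unadjusted p = 0.123 by edgeR). Col24a1 stayed between 5.94 and 9.96 CPM in all libraries (0.04, SE 0.24), the smallest absolute change among the other chains after Col8a1.

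The chains anchored in the cell membrane were led by Col25a1, which had 300.0, 77.4 and 45.7 CPM with vehicle and 228, 47.9 and 100.0 CPM with PSB-KD107. Library 1 of both groups held the highest levels, and the log2 fold change was -0.17 (SE 0.84). The rest of them were low, with a mean of 0.190 FPKM for Col13a1, found at the neuromuscular junction, 0.379 FPKM for Col17a1, found in the hemidesmosomes of skin, and 0.0582 FPKM for Col23a1. Their log2 fold changes were -0.55 (SE 0.81), -0.70 (SE 0.69) and -0.33 (SE 0.48). Col8a1, a network-forming chain (mean 1.91 FPKM), had a log2 fold change of -0.03 (SE 0.58), Col7a1, the chain of the anchoring fibrils of skin (0.453 FPKM), one of -0.13 (SE 0.39), and Col26a1 (2.40 FPKM) one of -0.33 (SE 0.70). Their groups overlapped. Of the chains not tested, Col8a2, Col9a1, Col9a2, Col9a3, Col10a1, Col14a1, Col22a1 and Col28a1 had at most 21 counts in any library. Among them Col9a1, named here after its values were seen, had 1, 21 and 11 counts with vehicle and 1, 0 and 1 with PSB-KD107.

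Genes that make, export and crosslink collagen were described next to the chains. Of 27 genes for synthesis, folding and secretion, 26 were tested. The median of their log2 fold changes was -0.11, and 2 were lower at an unadjusted p-value under 0.05 and 0 higher. This and the counts of the lists that follow stand beside 2.93% lower and 6.47% higher of all genes tested. Tmem38b, a potassium channel of the endoplasmic reticulum needed for collagen modification in bone, had 231, 226 and 226 CPM with vehicle and 184, 184 and 188 CPM with PSB-KD107. It had a log2 fold change of -0.30 (SE 0.08, adjusted p = 0.326 by edgeR and 3.7e-05 by DESeq2). P3h3, a prolyl 3-hydroxylase family member that works with lysyl hydroxylase, had a log2 fold change of -0.44 (SE 0.13). Its unadjusted p was 0.0164 and its adjusted p 0.405 by edgeR, and its adjusted p was 0.0295 by DESeq2. The collagen chaperone Serpinh1 had 515, 688 and 716 CPM with vehicle and 458, 690 and 847 CPM with PSB-KD107, which overlapped (0.06, SE 0.25).

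PSB-KD107 4 stood apart in some of the hydroxylases, but not in others such as P3h1 and P3h3, and in Lox. P4ha1, the main prolyl 4-hydroxylase subunit, had 473 CPM there against 182 to 216 CPM in the other 5 libraries. Plod2, which hydroxylates lysines for stable crosslinks, had 353 CPM there against 84.97 to 102 CPM, and Lox, a crosslinking lysyl oxidase, had 68.8 CPM there against 2.76 to 10.1 CPM. Without that library their log2 fold changes were -0.17, -0.14 and -0.16. The same library was the highest of all 6 for 5 chains, among them Col18a1, Col4a5 and Col6a3, and the part of this in the collagen results was not tested beyond leaving the library out.

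Of 15 genes for maturation outside the cell, 11 were tested, with a median of 0.07 (-0.35 without PSB-KD107 4 and 0.80 without vehicle 1), and 1 was higher at an unadjusted p-value under 0.05 and 0 lower. It was Pcolce2, an enhancer of propeptide removal, with a log2 fold change of 1.12 (SE 0.41, unadjusted p = 0.0325 by edgeR) at 0.527 to 2.07 CPM. Of 20 partners of type IV collagen in the basement membrane, 16 were tested, with a median of 0.06 (-0.11 without PSB-KD107 4), and 1 was lower and 1 higher at an unadjusted p-value under 0.05. Sparc, which binds collagen and aids its deposition, had 749, 657 and 649 CPM with vehicle and 485, 453 and 594 CPM with PSB-KD107 (log2 fold change -0.42, SE 0.14, unadjusted p = 0.0226 by edgeR). Lama5, a laminin chain, had the opposite sign (0.60, SE 0.21, unadjusted p = 0.0281 by edgeR).

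Of 28 other matrix genes, 19 were tested, with a median of 0.18 (-0.19 without PSB-KD107 4 and 0.36 without vehicle 1). Mfap4, a microfibril protein, was the only one of them with an unadjusted p-value under 0.05, at 8.42, 18.9 and 19.2 CPM with vehicle and 2.25, 7.28 and 2.42 CPM with PSB-KD107 (log2 fold change -1.97, SE 0.58, adjusted p = 0.388 by edgeR and 0.0211 by DESeq2).

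Some markers of other states moved between the groups as well. The 8 markers of differentiating myocytes and fibers summed to 28910 to 32530 CPM with vehicle and 23140 to 26730 CPM with PSB-KD107, and all 8 were tested. Myh3 was the largest part of this sum (mean 17790 CPM with vehicle and 13140 CPM with PSB-KD107). Myh3, Myog, Mymk and Mymx were lower without overlap (log2 fold changes -0.44, -0.49, -0.37 and -0.70), beside 6.59% of all genes tested. Their SEs were 0.17, 0.18, 0.11 and 0.20, in the same order. Adjusted p-values were 0.361 to 0.493 by edgeR. By DESeq2 they were 0.0047, 0.119, 0.0038 and 0.0412, so that Myog was not called. The groups overlapped for Acta1 (0.007), Ckm (0.33), Myh4 (0.62) and Tnnt3 (0.007). The 6 markers of smooth muscle cells and pericytes, of which 2 were under 1 CPM, summed to 114 to 189 CPM and 51.0 to 93.9 CPM, mostly through Notch3, a receptor that satellite cells also carry. Both sums separated the groups, as did the myoblast sum. The levels of 5 collagen chains (Col1a2, Col4a2, Col6a1, Col11a2 and Col27a1) did so too, all lower with PSB-KD107. Beside them, 6.59% of all genes tested were lower without overlap and 9.2% higher. Among the myoblast markers Pax7, which marks satellite cells, had 68.8, 49.9 and 60.0 CPM with vehicle and 34.0, 26.8 and 35.1 CPM with PSB-KD107, with no overlap (log2 fold change -0.90, SE 0.17, adjusted p = 0.209 by edgeR and 6.39e-04 by DESeq2). The 5 markers of tendon cells summed to 44.9 to 98.1 CPM with vehicle and 69.3 to 118 CPM with PSB-KD107. Of them, 3 were under 1 CPM, and the sum came mostly from Scx. Scx alone had 44.4 to 94.3 CPM with vehicle and 67.5 to 114 CPM with PSB-KD107. The 5 markers of Schwann cells summed to 1.21 to 4.10 CPM. The part of any of these in the collagen levels was not tested.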

How the data were processed

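Raw counts per gene were deposited by the authors, who aligned paired-end reads of polyadenylated RNA to mm10 with STAR; the counting program, annotation and strand setting are not given in the sources used here. No other unit was used. Exon lengths and coordinates came from GENCODE M21 (GRCm38). In R 4.3.3, edgeR 4.0.16 filtered genes with filterByExpr, scaled libraries with TMM factors, and compared PSB-KD107 with vehicle by its quasi-likelihood test, with Benjamini-Hochberg adjustment over 14165 genes. The study's methods name DESeq2, which was run as an alternative (1.42.0), as were limma-voom (limma 3.58.1), RLE factors, other filters, replicate blocks and left-out libraries. The fits were tested on simulated counts with known changes.

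CPM and FPKM were computed from the counts, and SDs are over 3 libraries. The chains named were all that passed the filter, by class, with values per library for those without overlap, the 5 most abundant, and the smallest p-value of each class; of each related list, up to 3 genes per direction at an unadjusted p-value under 0.05, with Serpinh1, P4ha1, Plod2 and Lox. Per-library values of further chains and genes were chosen after they were seen. The chains and lists were chosen with earlier results of these data known. Libraries numbered 4 were assigned by the group in their column name only.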

Additional observations from a re-analysis of the deposited data

How the results depend on the processing

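Both doubted libraries decide much of what was seen: the class medians shrink to near 0 without vehicle 1 and deepen without PSB-KD107 4, while Col1a2 keeps its size. The 16 chains too low to test stayed out of the main comparison, and 9 of these had 10 counts or fewer in every library. The replicate numbers gave no sure pairing: deviations from the group means correlated across genes at 0.63 for number 1 and 0.50 for number 2, but at -0.13 for number 4, and vehicle 4 correlated best with PSB-KD107 2 (0.64). A fit with this number as replicate block could use 4 libraries (numbers 1 and 2) and had 1 residual degree of freedom, and in it 18 chains of 28 and 2456 of 14400 genes were called at an adjusted p-value under 0.05. At an unadjusted p-value under 0.05, 19 chains were lower and 1 higher under that block, beside 2173 lower and 2237 higher of 14400 genes. The same 4 libraries with no block (added after seeing the data) gave 0 calls and 7 lower chains (312 genes of 14400), and a block over 6 libraries gave 0 calls.

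DESeq2 called 1 chain on the same genes and 1 on all genes with a count (added later), and 0 to 3 with each library left out (added later; 0 without vehicle 4, and 3, which were Col1a2, Col6a1 and Col6a2, without PSB-KD107 4). Chains lower at an unadjusted p-value under 0.05 numbered 2 in the main comparison (415 of 14165 genes), 4 with DESeq2 (614 of 14165), 6 of 44 with DESeq2 on all genes (551 of 24186), 6 of 44 with no filter on low counts (497 of 24186), 0 of 16 with a mean FPKM of at least 1 (384 of 11061), and 1 to 6 with each library left out. They were 4 without vehicle 4 (198 of 14596 genes), 1 without PSB-KD107 1 (320 of 14373) or 2 (712 of 14573), and 6 without PSB-KD107 4, including Col9a1 (528 of 14447). Higher chains numbered 0 to 1. With a library left out, 0 chains were called by edgeR, and the median ranged from -0.78 to -0.09 for fibrillar, from -0.79 to 0.03 for basement membrane and from -0.48 to -0.07 for other chains, each over the 29 to 31 chains that passed the filter in that setting rather than the 28 of the main comparison. The basement membrane median was 0.40 with no filter and with DESeq2 on all genes, where more low chains enter, -1.004 with the block on 4 libraries and -1.08 without it.

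Signs that changed concerned chains with no test passed in the main comparison. With the block on 4 libraries and with no block on them, log2 fold changes were -1.17 and -1.15 for Col4a5, -3.64 and -3.52 for Col6a3, -0.78 and -0.78 for Col18a1, 0.26 and 0.28 for Col20a1, and -0.28 and -0.27 for Col24a1. The block over 6 libraries gave -1.30 for Col6a3, 0.0036 for Col11a1 and -0.13 for Col18a1. With limma-voom they were 0.14 for Col5a3, -1.24 for Col6a3, 0.0042 for Col8a1, 0.045 for Col11a1, -0.11 for Col18a1, -0.017 for Col24a1 and 0.017 for Col25a1. Col18a1, at 0.00 in the main comparison, was -0.0090 with RLE factors and with DESeq2, -0.0053 with no filter, -0.0056 with DESeq2 on all genes and -0.0025 with the FPKM filter. With each library left out, values ranged from -1.52 to 0.068 for Col3a1, -0.74 to 3.26 for Col4a5, -0.85 to 1.59 for Col5a3, -3.09 to 2.84 for Col6a3, -0.34 to 0.36 for Col7a1, -0.46 to 0.59 for Col8a1, -0.48 to 0.83 for Col11a1, -1.23 to 0.11 for Col13a1, -0.75 to 0.43 for Col16a1, -0.58 to 0.33 for Col18a1, -0.64 to 0.21 for Col20a1, -0.18 to 0.19 for Col24a1, -0.95 to 1.02 for Col25a1 and -1.08 to 0.58 for Col26a1. The cause was not tested. Of 436 log2 fold changes of single chains recomputed, 372 kept their direction and side of the threshold.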
